A study of Mus musculus with 6 samples.

Results

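Padi2, which encodes the main peptidylarginine deiminase of the brain, was examined beside 8 genes of the myelin sheath (Mbp, Mog, Mag, Mobp, Cnp, Cldn11, Opalin and Mal) in RNA of the suprachiasmatic nucleus (SCN), the hypothalamic seat of the central clock. These 9 genes were picked by symbol from 17645 genes listed in at least 1 library. Padi2 was picked because it was among the genes called lower in the comparison described here, so its own difference is given as a description with no test. The myelin genes were picked for their role, to show whether Padi2 followed the oligodendrocyte RNA of each library, and with an earlier result on oligodendrocyte genes known.

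The tissue came from female C57BL/6 mice killed in the dark at zeitgeber time (hours after lights on) 12 to 14, and was punched from frozen brain sections with a needle. The 3 libraries titled r1r2V (replicates 1, 4 and 5) were taken to carry the deletion named in the series title, of Rev-erbα (Nr1d1) with Rev-erbβ (Nr1d2) in the GABAergic neuron class, and the 3 titled V (replicates 2, 3 and 4) to be its controls. What V stands for, the Cre driver and whether both groups carry it, the exons removed and the ages are not stated in the labels. Each library pooled equal RNA from 2 SCN; nothing says that pools came from separate animals, so the errors below measure the spread between these libraries.

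Nr1d1, a targeted gene, had 196, 157 and 147 CPM (counts relative to library size, which was scaled with trimmed means of M-values) in the libraries labelled r1r2V, against 56.7, 62.5 and 57.0 CPM in those labelled V (ratio of means 2.84, edgeR adjusted p = 8.24e-05). All 3 libraries labelled r1r2V lay above all 3 labelled V, as in 6.87% of the genes tested. Nr1d2 had 229, 275 and 222 CPM in the libraries labelled r1r2V, against 177, 179 and 168 CPM in those labelled V (log2 fold change 0.47, edgeR adjusted p = 0.0553). Neither targeted transcript was lower in total where the titles place the deletion, and totals over all exons cannot show it, so every direction below rests on the titles. Total expected counts ran from 17040698 to 17566335 in the libraries labelled r1r2V and from 15729603 to 17780928 in those labelled V. Of 10 genes that mark the SCN and GABAergic neurons, all were detected, with summed levels of 1527 to 1736 CPM in the libraries labelled r1r2V and 1667 to 1770 CPM in those labelled V. Their mean log2 level, less that of V, was -0.09, 0.13 and -0.53 in r1r2V replicates 1, 4 and 5, against 0.09, -0.01 and -0.08 in V replicates 2, 3 and 4, so r1r2V replicate 5 stood lowest. Of these 10 genes 0 were called, where 0.416% of all genes tested were, 8 were negative and the median log2 fold change was -0.20. In 3 of them, Slc32a1 (-0.25), Lhx1 (-0.48) and Rora (-0.19), all libraries labelled r1r2V lay below all labelled V. These 3 were named after their values were seen, and 7.63% of all genes tested showed that order. Prok2, Vip and Avp were also named after their values were seen. Prok2 went the other way, with a log2 fold change of 1.26 (SE 0.642) and groups that overlapped. In r1r2V replicate 5, Vip (11.4 CPM) and Prok2 (1.75 CPM) were the lowest of all libraries, while Avp (384 CPM) was the highest. The part of these genes in the Padi2 result was not tested. Over 14438 genes tested with edgeR's quasi-likelihood test, 43 passed an adjusted p (Benjamini-Hochberg) of 0.05 as higher (0.298%) and 17 as lower (0.118%), together 0.416% of the genes.

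Peptidylarginine deiminases convert arginine residues of proteins to citrulline, a calcium-dependent change that removes a positive charge. In the central nervous system PADI2 is made largely by oligodendrocytes, with some in astrocytes and microglia, and myelin basic protein is its best-known substrate there. Oligodendrocytes wrap axons in compact myelin; their RNA in a tissue punch can vary with how much fibre tract the punch takes in, and the SCN lies directly on the optic chiasm.

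Padi2 stood at well under its control level in every library labelled r1r2V. It had 22.7, 27.6 and 29.3 CPM in r1r2V replicates 1, 4 and 5, against 70.6, 56.1 and 83.2 CPM in V replicates 2, 3 and 4. All 3 libraries labelled r1r2V lay below all 3 labelled V, an order that the choice of the gene fixes and that 7.63% of the genes tested showed. The mean was 26.5 ± 3.44 CPM in the libraries labelled r1r2V and 70.0 ± 13.6 CPM in those labelled V (SD, n = 3 each), a ratio of 0.379. The log2 fold change from the fit over all genes was -1.40 with a standard error (SE) of 0.143 (95% interval -1.72 to -1.08). Without r1r2V replicate 5 the fold change was -1.48, and over all 6 omissions of 1 library it ran from -1.54 to -1.26. Expected counts behind these levels were 391.1, 479.56 and 503.16 in the libraries labelled r1r2V and 1251.96, 994.75 and 1311.8 in those labelled V. They were not whole in any library, so reads of Padi2 were partly divided with other features when counts were estimated, whereas the 8 myelin genes had whole counts in every library. On the plus strand of chromosome 4, Padi2 (gene ID 18600) spans 140906336 to 140952586 (GRCm38, the assembly that mm10 names). A stretch of 149 bases of its exons is also annotated to Gm13031, an antisense RNA on the minus strand. Whether counting used strand is not stated in the labels, so reads there cannot be told apart. No gene named Gm13031 was listed in any library, and which features shared the Padi2 reads is not known.

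The windows just before the start sites show how the Padi2 promoter differs in letters from those of 2 myelin genes, Cnp, whose window holds the same motif, and Mog, whose window does not. Each is 250 bases long and ends at the transcript start used in the RefSeq table (GRCm38.p6), which for Padi2 and Cnp lies just inside the gene bounds given here, read 5′ to 3′ on the gene's strand, with matches to a GC box (GGGCGG, either strand) in capitals.
Padi2, chr4:140906110-140906359, plus strand: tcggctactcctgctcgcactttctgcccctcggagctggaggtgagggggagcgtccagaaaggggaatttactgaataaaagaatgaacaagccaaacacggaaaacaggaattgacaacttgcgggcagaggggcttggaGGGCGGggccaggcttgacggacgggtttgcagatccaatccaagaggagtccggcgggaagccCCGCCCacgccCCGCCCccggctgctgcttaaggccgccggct
Cnp, chr11:100574689-100574938, plus strand: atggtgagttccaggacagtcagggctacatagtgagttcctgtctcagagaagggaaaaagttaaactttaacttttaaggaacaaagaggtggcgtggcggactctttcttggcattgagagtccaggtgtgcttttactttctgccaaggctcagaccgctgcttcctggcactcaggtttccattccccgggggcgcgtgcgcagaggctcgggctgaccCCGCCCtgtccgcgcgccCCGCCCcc
Mog, chr17:37023399-37023648, minus strand: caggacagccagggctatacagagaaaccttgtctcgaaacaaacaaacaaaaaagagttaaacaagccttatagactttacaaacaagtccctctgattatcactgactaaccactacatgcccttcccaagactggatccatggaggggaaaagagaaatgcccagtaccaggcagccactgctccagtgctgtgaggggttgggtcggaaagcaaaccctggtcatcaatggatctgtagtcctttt

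Of the 9 genes, 8 had a RefSeq window, Mbp being the exception. Mag had 3 windows, of which just the first was searched for motifs. The Padi2 window held 3 GC boxes, a number reached by 8.47% of 32851 such windows, and that of Cnp held 2. No GC box was in the windows of Mog, Mag, Mobp, Cldn11, Opalin and Mal, while 32.7% of all windows hold at least 1. The Padi2 window was 61.6% G and C, those of the myelin genes ran from 40.8% for Mobp to 66% for Mag, and the median of all windows was 52.4%. Neither the nuclear receptor half-site AGGTCA, which REV-ERB and oestrogen receptors share and 14% of windows hold, nor the E-box CACGTG (6.02%), a SOX site AACAAT (9.42%) or a TATA box TATAAA (12.4%) was found in any of the 8 windows, on either strand. Such matches describe these letters only.

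All 8 myelin genes overlapped between the groups, while 14.5% of all genes tested did not overlap. None was called higher or lower, where 0.298% of all genes tested were called higher and 0.118% lower, and 0 had an unadjusted p under 0.05, against 7.58% of all genes. For 8 genes these counts are near the shares over all genes and say little by themselves, so the intervals are given. Their log2 fold changes ran from -0.30 to 0.03, with 5 below 0 and 3 above, and their median was -0.06, against 0.01 over all genes tested. Their 95% intervals lay within -0.78 and 0.40, so none reached the Padi2 value of -1.40. The median turned on single libraries. It was -0.21, with all 8 genes below 0, without r1r2V replicate 5, and Padi2 less the myelin mean was then -1.21. It was 0.01 without r1r2V replicate 4 and 0.09 without V replicate 4, the library with the most myelin RNA.

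Genes of structural proteins and of a sheath enzyme come first. Mbp (chromosome 18, 82475091 to 82585637), which encodes the basic protein that holds the inner membrane faces together, had 2329, 2406 and 2907 CPM in the libraries labelled r1r2V, against 2553, 2345 and 3436 CPM in those labelled V (log2 fold change -0.12, SE 0.135). Mobp (chromosome 9, 120149742 to 120181488), which encodes a second small basic myelin protein, had 220, 204 and 247 CPM in the libraries labelled r1r2V, against 209, 197 and 289 CPM in those labelled V (log2 fold change -0.05, SE 0.134). In both genes V replicate 4 was the highest library and r1r2V replicate 5 the next. Cnp (chromosome 11, 100574909 to 100591875) encodes an enzyme that keeps cytoplasmic channels in the sheath open. It had 355, 348 and 492 CPM in the libraries labelled r1r2V, against 393, 383 and 488 CPM in those labelled V (log2 fold change -0.08, SE 0.136). A stretch of 154 bases of Cnp exons is shared with Dnajc7 on the other strand, and 79 bases of Mobp exons with Gm38642 on the same strand. Dnajc7 was among the genes listed and Gm38642 was not. Reads there cannot be told apart by position, though the expected counts of Cnp and Mobp were whole in every library.

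Genes of the sheath membrane and of its junctions follow. Mal (chromosome 2, 127633226 to 127656695), which encodes a proteolipid of membrane sorting, had 235, 230 and 336 CPM in the libraries labelled r1r2V, against 242, 243 and 312 CPM in those labelled V (log2 fold change 0.01, SE 0.148). Cldn11 (chromosome 3, 31149920 to 31164326), which encodes the claudin of myelin tight junctions, had 166, 168 and 243 CPM in the libraries labelled r1r2V, against 170, 164 and 232 CPM in those labelled V (log2 fold change 0.03, SE 0.165). r1r2V replicate 5 was the highest of the 6 libraries for both. The adhesion molecule gene Mag (chromosome 7, 30899175 to 30914922) had 135, 117 and 176 CPM in the libraries labelled r1r2V, against 137, 143 and 202 CPM in those labelled V (log2 fold change -0.17, SE 0.167). Mog (chromosome 17, 37010740 to 37023398), which encodes a glycoprotein of the outermost lamella, had 66.9, 67.6 and 90.1 CPM in the libraries labelled r1r2V, against 68.3, 67.3 and 87.7 CPM in those labelled V (log2 fold change 0.01, SE 0.134). Again 1 library of each group, r1r2V replicate 5 and V replicate 4, stood above the other 2. Opalin (chromosome 19, 41061959 to 41077113), a transmembrane protein gene of mature oligodendrocytes, was the most scattered: it had 12.8, 10.7 and 21.9 CPM in the libraries labelled r1r2V, against 17.7, 17.6 and 20.4 CPM in those labelled V (log2 fold change -0.30, SE 0.219). Its 2 lowest libraries were r1r2V replicates 1 and 4, and its highest was r1r2V replicate 5. Its log2 fold change was -0.66 (SE 0.121) without r1r2V replicate 5 and -0.10 (SE 0.195) without r1r2V replicate 4.

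**Figure D1:**
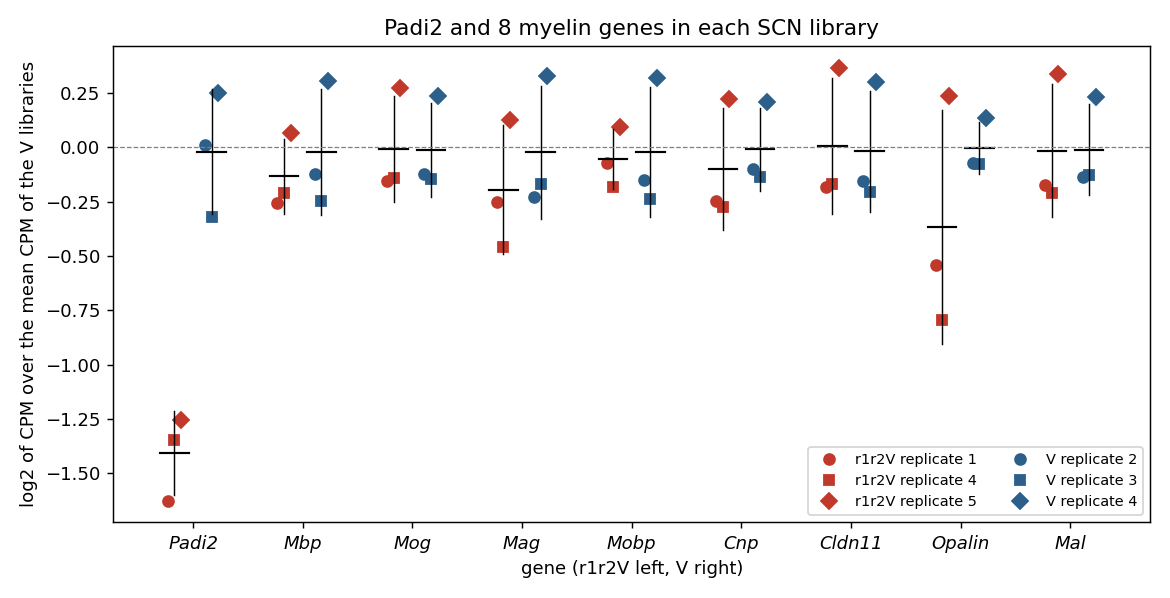
Level of each gene in each library, as log2 of its CPM over the mean CPM of the V libraries (vertical axis), with r1r2V left and V right for each gene; black lines mark the mean ± SD of 3 libraries. The 3 Padi2 points labelled r1r2V lie well below the rest, while in all 8 myelin genes the groups overlap and r1r2V replicate 5 and V replicate 4 (diamonds) stand highest.

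Per length, in the authors' FPKM (fragments relative to transcript length and to all mapped fragments), the 9 genes kept one order of mean levels in both groups. It ran Mbp, Cnp, Cldn11, Mal, Mobp, Mag, Mog, Opalin and Padi2 from high to low. Mbp averaged 1306 ± 158 FPKM in the libraries labelled r1r2V and 1434 ± 302 FPKM in those labelled V (SD, n = 3 each), and Cnp averaged 172 ± 33.7 FPKM in the libraries labelled r1r2V and 183 ± 24.3 FPKM in those labelled V. Cldn11, Mal and Mobp overlapped one another in both groups, with means of 92.7 to 108 FPKM in the libraries labelled r1r2V and 95.5 to 107 FPKM in those labelled V. Mag and Mog overlapped in the libraries labelled r1r2V (59.7 ± 12.4 and 45.9 ± 7.90 FPKM) and not in those labelled V (67.8 ± 15.0 and 45.8 ± 7.04 FPKM). Mobp and Mag overlapped only in those labelled V. Padi2 closed the order with 4.92, 5.85 and 6.23 FPKM in the libraries labelled r1r2V, against 15.1, 12.1 and 17.9 FPKM in those labelled V. Opalin, next above it, had 13.4 to 27.6 FPKM in the libraries labelled r1r2V and 22.3 to 25.7 FPKM in those labelled V, so Padi2 was below Opalin in each of the 6 libraries.

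Set against myelin RNA library by library, the Padi2 difference remained. A myelin score was taken as the mean log2 CPM of the 8 genes, less its mean over the V libraries. The score was -0.22, -0.29 and 0.23 in r1r2V replicates 1, 4 and 5, against -0.12, -0.15 and 0.27 in V replicates 2, 3 and 4. The groups thus overlapped, and the 6 libraries spanned 0.56 on the log2 scale, while Padi2 spanned 1.87. On the same scale Padi2 was at -1.60, -1.32 and -1.23 in r1r2V replicates 1, 4 and 5, against 0.03, -0.30 and 0.27 in V replicates 2, 3 and 4. Padi2 less the score was then -1.38, -1.03 and -1.46 in the libraries labelled r1r2V, against 0.15, -0.15 and -0.00445 in those labelled V. The gap between the nearest libraries of the groups was 0.88. The group difference of this quantity was -1.29 from these values and -1.31 from fitted log2 fold changes, against -1.39 and -1.40 for Padi2 alone.

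Within a group, the library with the most myelin RNA also had the most Padi2. V replicate 4 was highest and V replicate 3 lowest in both, with ranges of 0.57 for Padi2 and 0.43 for the score. r1r2V replicate 5 was highest in both, with ranges of 0.37 for Padi2 and 0.52 for the score, but the lowest library was replicate 1 for Padi2 and replicate 4 for the score. With 3 libraries in a group these orders are a description. A pair in which the score and Padi2 differed in opposite directions, chosen after its values were seen, was r1r2V replicate 5 and V replicate 3: the r1r2V library had a myelin score 0.38 higher and 0.523 times the Padi2 CPM. Of the 9 pairs of a library labelled r1r2V and a library labelled V, 2 had the higher score in the library labelled r1r2V. Padi2 was lower in the library labelled r1r2V in all 9, by ratios from 0.273 to 0.523. The choice of Padi2 fixes that direction, and the pairs reuse the same libraries, so they are not 9 separate results.

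**Figure D2:**
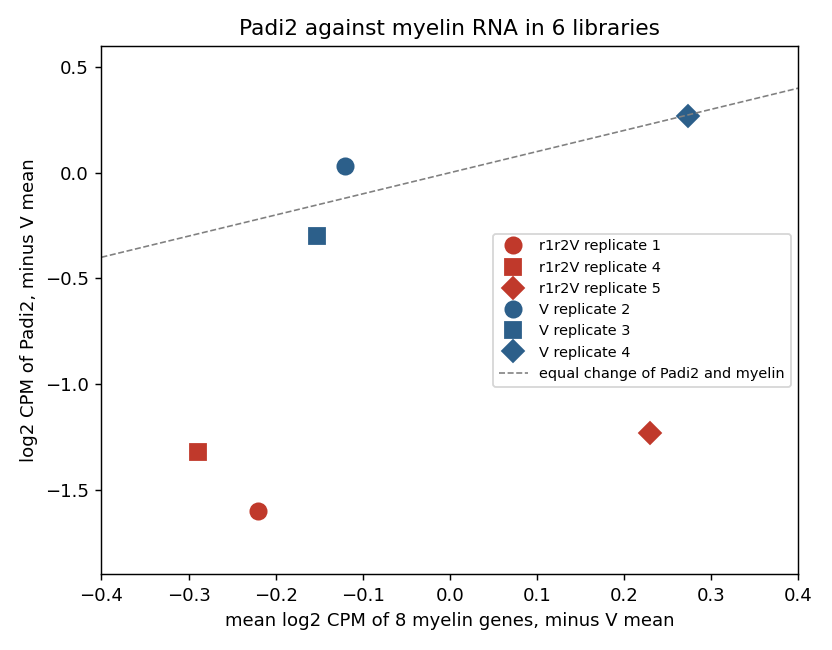
Padi2 log2 CPM (vertical axis) against the mean log2 CPM of the 8 myelin genes (horizontal axis), both less the mean of the V libraries, 1 point per library; the dashed line is where both would differ equally. The V libraries lie within 0.15 of the line and the libraries labelled r1r2V lie 1.03 to 1.46 below it, at scores that overlap those of V.

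Per unit of myelin RNA, in CPM, Padi2 amounted to 6.44, 7.76 and 6.50 for every 1000 CPM of the 8 genes in the libraries labelled r1r2V, against 18.6, 15.7 and 16.4 in those labelled V. The mean was 6.90 ± 0.747 in the libraries labelled r1r2V and 16.9 ± 1.52 in those labelled V (SD, n = 3 each), a ratio of 0.407. Relative to each myelin gene alone, in FPKM, the groups did not overlap for any of the 8. Padi2 was 0.435 ± 0.0377% of Mbp in the libraries labelled r1r2V and 1.05 ± 0.0865% in those labelled V (SD, n = 3 each). It was 12.5 ± 1.54% of Mog in the libraries labelled r1r2V and 32.8 ± 3.52% in those labelled V, and 3.35 ± 0.505% of Cnp in the libraries labelled r1r2V and 8.20 ± 0.867% in those labelled V. The ratio of the group means was lowest for Cldn11, at 0.377, and highest for Opalin, at 0.504, where the percentages were 30.2, 43.6 and 22.6 in the libraries labelled r1r2V, against 67.8, 54.1 and 69.5 in those labelled V. Each of these ratios holds the same Padi2 values, so they are not 8 separate results. Padi2 was chosen for its lower level in the libraries labelled r1r2V, and that choice favours the separation of the groups in every ratio. In bulk tissue, fewer cells of a type and less RNA per cell cannot be told apart.

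A wider list of 50 other genes of mature oligodendrocytes, without the 9, was set beside Padi2 in the same way. The list is not confined to genes of mature cells alone, since it includes transcription factor genes of the lineage. None of the 50 was called higher or lower (0.416% of all genes were called), a count near that share that says little by itself. An unadjusted p under 0.05 was found in 0, against 7.58% of all genes. DESeq2, which called 69 genes higher and 40 lower over all genes, called none of the 50. Their median log2 fold change was 0.01, against 0.01 over all genes tested, with 27 positive and 23 negative, from -0.24 for Pllp, a plasmolipin gene, to 0.42 for Anln. The transcription factor genes of the lineage also stayed short of the test, with log2 fold changes of 0.09 for Sox10, 0.01 for Olig1, -0.17 for Olig2 and -0.04 for Myrf. For genes of myelin lipid synthesis, Ugt8a (galactosylceramide) and Fa2h (2-hydroxylation of fatty acids), they were 0.07 and -0.15, and for Aspa, which encodes aspartoacylase, -0.05. Ermn, a cytoskeletal gene of the sheath, had 0.09. Groups did not overlap in 2 of the 50, against 14.5% of all genes tested. These were Efnb3 (-0.10) and Aatk (-0.15), named after their values were seen and both lower in the libraries labelled r1r2V. The mean level of the 50 genes, less the V mean, was -0.09, -0.07 and 0.15 in r1r2V replicates 1, 4 and 5, against -0.10, -0.10 and 0.20 in V replicates 2, 3 and 4. With this mean level as a covariate in the fit, the Padi2 log2 fold change was -1.39 (SE 0.108), and with library sizes set to the summed counts of the 8 myelin genes it was -1.30 (SE 0.242).

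**Figure D3:**
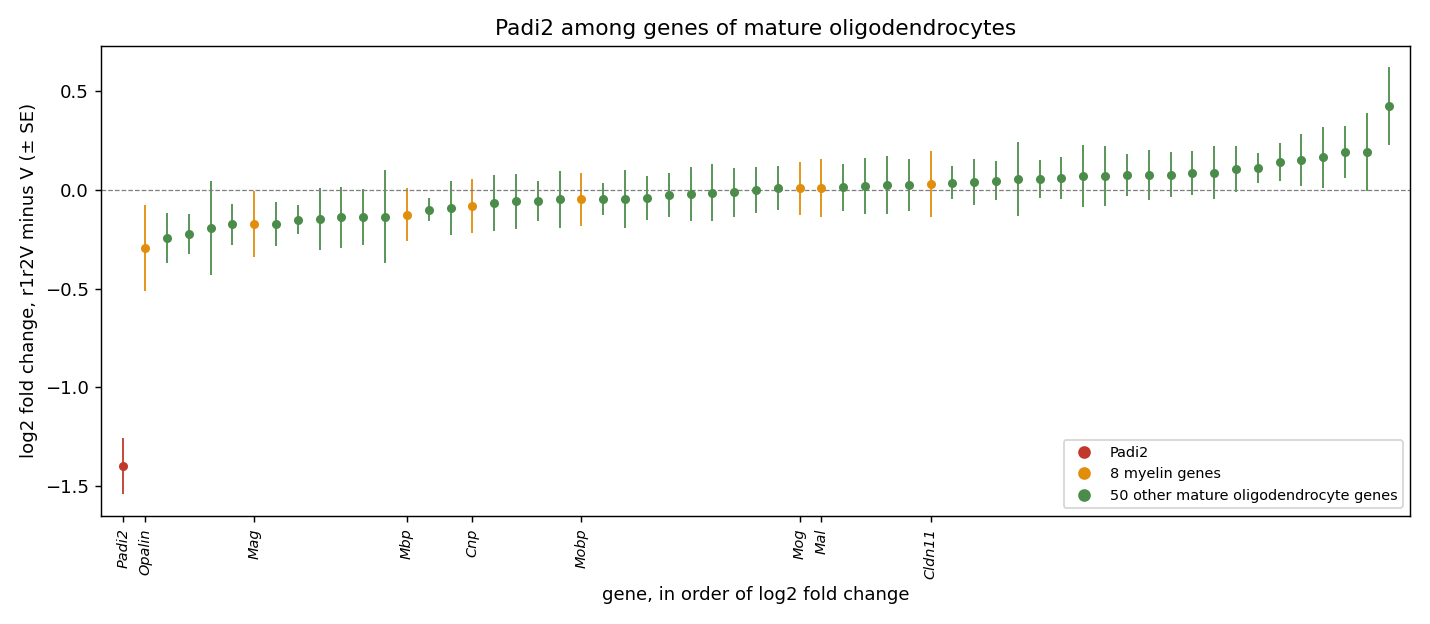
Log2 fold change, r1r2V minus V, with SE bars (vertical axis) of Padi2, the 8 myelin genes and 50 other genes of mature oligodendrocytes, in order of value, with Padi2 and the 8 named on the axis. Padi2 lies at -1.40, and all other genes lie between -0.30 and 0.42.

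Genes of earlier stages of the lineage and of other cell types that can hold Padi2 were also not called. Over all genes tested 0.416% were called, so counts of 0 in these lists say little by themselves. The median log2 fold change was -0.05 over 8 genes of newly formed oligodendrocytes, of which 7 were negative. It was 0.07 over 10 genes of their precursors, of which 4 were negative, with 0 called in either list. In 14 astrocyte genes the median was 0.00045 with 7 positive, and summed levels were 5085 to 5898 CPM in the libraries labelled r1r2V and 5247 to 5670 CPM in those labelled V. Microglia genes were all 14 positive with a median of 0.10 and 0 called; their summed levels were 446 to 519 CPM in the libraries labelled r1r2V and 444 to 475 CPM in those labelled V. The part of these cells in the Padi2 result was not tested. Neuronal genes had a median of -0.02 (10 genes) and endothelial genes 0.01 (8 genes), with 0 called. Meningeal fibroblast genes were all 7 positive with a median of 0.44 and 0 called, and their mean level was highest in r1r2V replicate 5. Summed levels of these genes were 86.2 to 221 CPM in the libraries labelled r1r2V and 89.6 to 126 CPM in those labelled V. For Slc6a13, named after its values were seen, the log2 fold change was 0.93 (SE 0.235, edgeR adjusted p = 0.257). Its libraries labelled r1r2V all lay above those labelled V, as in 6.87% of the genes tested. The part of meningeal fibroblast genes in the Padi2 result was not tested. Of markers of Schwann cells, the myelinating cells of peripheral nerve, 3 were tested and 0 called, with a median of 0.07, and summed levels were 23.8 to 26.9 CPM in the libraries labelled r1r2V and 19.4 to 29.3 CPM in those labelled V.

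The other peptidylarginine deiminase genes were barely detected. Padi1, Padi3, Padi4 and Padi6 were all below the filter on low counts. Padi1 had expected counts of 1, 0 and 0 in the libraries labelled r1r2V, against 4, 1 and 3 in those labelled V, and Padi3 had 0 in all 3 libraries labelled r1r2V, against 4, 0 and 2 in those labelled V. Padi4, the family member best known from neutrophils, had at most 1.01 in any library, and Padi6, that of the egg, 1 in a single library labelled r1r2V. At these numbers a difference between the groups was not detectable. Genes of 6 proteins known to be citrullinated, such as Gfap, Vim and Npm1, had a median log2 fold change of 0.09, with 5 positive. Of these 0 were called, where 0.416% of all genes tested were. Eno1, named after its values were seen, was at 0.30 (SE 0.0827, edgeR adjusted p = 0.340). All 3 of its libraries labelled r1r2V lay above all 3 labelled V, as in 6.87% of the genes tested. Expected counts of Eno1 were not whole in libraries of both groups, such as 12221.9 in r1r2V replicate 4 and 10712.3 in V replicate 2. Its reads were thus partly divided with other features, and its level is uncertain. The part of Eno1 in the Padi2 result was not tested. Oestrogen raises Padi2 in the pituitary and uterus of rodents, and of 8 oestrogen receptor and target genes 0 were called, with a median of 0.00035. Esr1, which encodes oestrogen receptor alpha, was at 49.0, 101 and 23.0 CPM in the libraries labelled r1r2V, against 53.1, 36.3 and 38.0 CPM in those labelled V and the groups overlapped (log2 fold change 0.44, SE 0.402). Esr2, which encodes oestrogen receptor beta and was named after its values were seen, averaged 1.04 ± 0.207 CPM in the libraries labelled r1r2V and 1.69 ± 0.462 CPM in those labelled V (SD, n = 3 each; log2 fold change -0.70, SE 0.290, edgeR adjusted p = 0.616). All 3 of its libraries labelled r1r2V lay below all 3 labelled V, as in 7.63% of the genes tested. The part of Esr2 in the Padi2 result was not tested. The oestrous stage of these females is not stated in the labels.

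Of the genes beside Padi2 on chromosome 4, none was called, where 0.416% of all genes tested were. Within 500 kb of its start, 20 other genes were listed and 13 tested. Sdhb, a subunit gene of succinate dehydrogenase and the nearest tested gene at 54.9 kb, had 155, 165 and 165 CPM in the libraries labelled r1r2V, against 165, 159 and 162 CPM in those labelled V (log2 fold change -0.0032, SE 0.0599). The 13 values ran from -0.33 for Fam131c to 0.68 for Spata21, with a median of 0.10 and 3 below 0. At an unadjusted p under 0.05 there were 5 (Arhgef10l, Atp13a2, Arhgef19, Epha2 and Fam131c), of which 3 were higher and 2 lower; over all genes 7.58% had such a p. Groups did not overlap in 5 of the 13, against 14.5% of all genes tested. Atp13a2, which encodes a lysosomal ATPase, had 149, 118 and 138 CPM in the libraries labelled r1r2V, against 90.6, 122 and 94.9 CPM in those labelled V (log2 fold change 0.40, edgeR adjusted p = 0.421), and its groups overlapped.

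**Figure D4:**
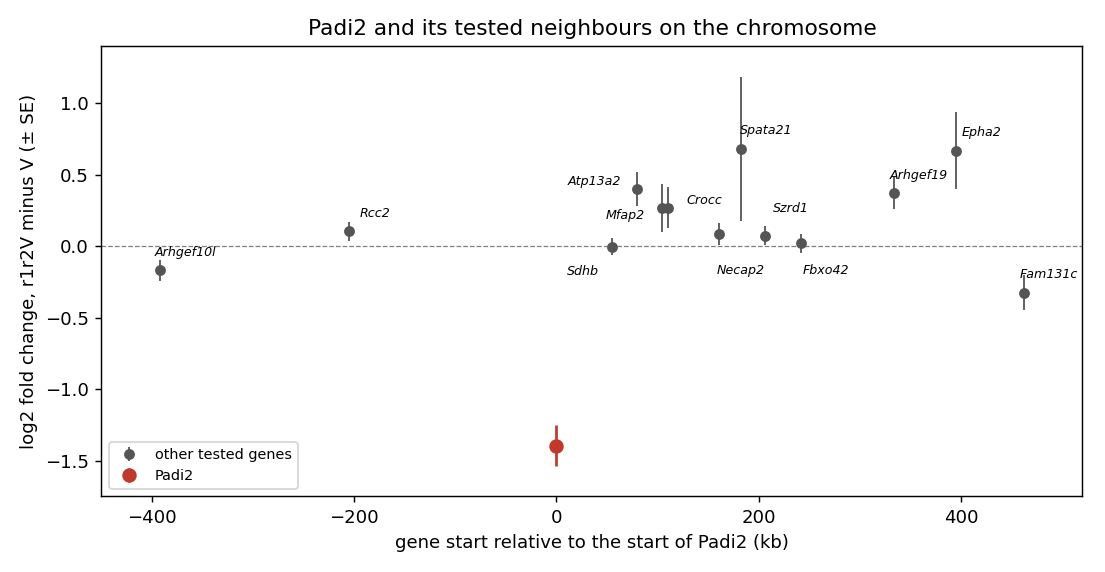
Log2 fold change, r1r2V minus V, with SE bars (vertical axis) of Padi2 and the 13 tested genes within 500 kb, by the distance of each gene's start from that of Padi2 in kb (horizontal axis). Padi2 lies at -1.40 and the neighbours between -0.33 and 0.68.

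Profiles most like that of Padi2 belonged to genes outside the oligodendrocyte lists. Likeness was the root-mean-square difference of log2 CPM over the 6 libraries, each gene centred on its own mean, among genes of at least 1 CPM. The 6 nearest were LOC105242399 (0.24), 4430402I18Rik (0.26), Micall2 (0.28), Plac9b (0.30), Ccdc3 (0.32) and 4930452B06Rik (0.35). Plac9b has a near-identical copy, Plac9a, so its level is uncertain. Plac9b and 4930452B06Rik lie on chromosome 14, as does the targeted Nr1d2, and what that position contributes was not tested. LOC105242399 had low expected counts, from 9.35 to 32.37. All 6 genes were lower in the libraries labelled r1r2V with groups that did not overlap, which a measure built on this difference favours. Micall2, which encodes a protein of junction assembly, had 3.95, 3.79 and 3.85 CPM in the libraries labelled r1r2V, against 6.83, 6.31 and 9.14 CPM in those labelled V. Of the 8 myelin genes, Opalin was nearest to Padi2 at 0.59 (place 346 of 13873) and Cldn11 farthest at 0.72 (place 6053).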

How the data were processed

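Gene-level RNA-seq values of 6 SCN libraries were used. Each deposited table holds, per the file headers, the authors' expected count (estimated reads, not always whole) and FPKM of each gene. The submitters' processing notes name RSEM 1.2.12, Bowtie2 2.2.5, HISAT2 2.0.4, DESeq2, Cufflinks 2.2.1, StringTie 1.0.4, GATK and mm10; roles, filters and strand use were not given. Genes missing from a table were set to 0.

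Expected counts were rounded, filtered (filterByExpr, minimum count 10), scaled with trimmed means of M-values (TMM) and compared with edgeR 4.0.16 in R 4.3.3 (glmQLFit, glmQLFTest), adjusting p-values by Benjamini-Hochberg across the 14438 genes; the fit was checked on simulated counts. All 9 genes passed the filter. SEs come from the F statistic. Log2 CPM used a prior count of 2. Alternatives used DESeq2 1.42.0 and limma 3.58.1. The members and lists were chosen with earlier results of these data known. Named were the 9 genes, the targeted genes, the deiminase family, tested neighbours within 500 kb, called list genes, 10 oligodendrocyte genes (some not reported here) and the 6 nearest profiles; others were chosen after their values were seen. Promoter sequences and positions are from RefSeq (GRCm38.p6), strands and overlaps from GENCODE M21. Intervals cover the spread between libraries and counting error.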

Additional observations from a re-analysis of the deposited data

How the results depend on the processing

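Padi2 stayed on the side of the threshold that chose it in all 15 alternatives, with log2 fold changes of -1.54 to -1.25 (-1.54 to -1.26 without 1 library), and Padi2 less myelin ran from -1.44 to -1.16. No myelin gene passed in any of 14 alternatives each, and none of the 50 other oligodendrocyte genes did. DESeq2 called 69 genes higher and 40 lower over all genes. Leaving out 1 library gave counts of 19 to 52 higher and 7 to 24 lower; the counts were 20 and 7 when V replicate 2 was dropped, 20 and 8 for V replicate 3, and 19 and 7 for V replicate 4. The myelin median ran from -0.21 to 0.094 without 1 library; it was lowest without r1r2V replicate 5, with all 8 genes below 0, and turned positive without V replicate 4 (0.094) and without r1r2V replicate 4 (0.011). Opalin ran from -0.66 without r1r2V replicate 5 (edgeR adjusted p = 0.0705) to -0.099 without r1r2V replicate 4. Single genes near 0 changed sign without 1 library: Cnp (-0.26 to 0.035), Mag (-0.35 to 0.020), Mal (-0.19 to 0.14), Mbp (-0.23 to 0.053), Mobp (-0.15 to 0.14), Mog (-0.15 to 0.14) and Cldn11 (-0.18 to 0.20). Mal was -0.0012 with the oligodendrocyte covariate, -0.0033 with limma-voom, -0.0096 on log2(FPKM + 1) and -0.0098 on log2(FPKM + 0.1), and Mog -0.00083 and -0.00089 on those FPKM scales. The cause was not tested. No paired analysis was possible because V and r1r2V have just 1 replicate number, 4, in common. With 3 libraries a group, changes of myelin genes within the intervals given were not excluded.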
